A study of Homo sapiens with 27 samples.

Results

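The 10 genes described here are respiratory chain genes of the mitochondrial genome: MT-ND1, MT-ND2, MT-ND3, MT-ND4, MT-ND5 and MT-ND6 encode membrane subunits of complex I, the NADH dehydrogenase that receives electrons from NADH. MT-CYB encodes cytochrome b of complex III, and MT-CO1, MT-CO2 and MT-CO3 encode the core of complex IV, the cytochrome c oxidase that passes electrons to oxygen. They were chosen by symbol, and all 10 were found in each of 3 read count tables that list 24379, 23532 and 23462 symbols, 27546 different ones in all. RNA was sequenced in 27 libraries from 3 established human prostate cancer cell lines. 22Rv1 is a line from a xenografted tumour, and DU145 and PC3 are lines from metastases.

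Each line had 3 libraries of cells with a control guide RNA, labelled wild type, and 3 libraries of each of 2 populations labelled RIPK2 knockout, made with different guides. RIPK2 encodes a kinase that relays signals of the NOD receptors of innate immunity. The guides were gRNA 1 and gRNA 10 in 22Rv1, and gRNA 2 and gRNA 10 in DU145 and PC3. Every control library of a line carried control gRNA 1. The labels do not say whether a population is 1 clone or a pool, nor whether replicates came from separate cultures, so the spread and the p-values below describe these libraries and may be technical. With 1 control population a line, the guide's target and the history of a population cannot be told apart.

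Mitochondrial DNA is a small circle read from both strands into long precursor RNAs. Most genes lie on the heavy-strand transcript, where ribosomal RNAs come first and the protein genes follow, separated by tRNAs whose removal frees the messages. Short poly(A) tails are then added, which in several messages also complete the stop codon. MT-ND6 is the only protein gene read from the light strand, and its message is known for lacking a long tail. The ratio of MT-ND6 to the rest therefore compares products of opposite strands, and the ratio of late to early genes compares places along 1 precursor.

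In GENCODE 29 (GRCh38), each gene is a single exon of chromosome M. MT-ND1 lies at chrM:3307-4262, MT-ND2 at chrM:4470-5511, MT-CO1 at chrM:5904-7445 and MT-CO2 at chrM:7586-8269, all on the plus strand of the assembly. MT-CO3 at chrM:9207-9990, MT-ND3 at chrM:10059-10404, MT-ND4 at chrM:10760-12137, MT-ND5 at chrM:12337-14148 and MT-CYB at chrM:14747-15887 follow on that strand. MT-ND6 lies on the minus strand at chrM:14149-14673, directly beyond the end of MT-ND5. The last 30 bases of 4 messages are shown because they differ in the feature that ties these RNAs to their tails. The capitals mark the end of the reading frame, either a whole codon or the T or TA left for the tail to complete, and the sequences are read 5′ to 3′ from the GENCODE 29 transcripts.
MT-ND1: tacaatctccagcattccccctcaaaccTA
MT-CYB: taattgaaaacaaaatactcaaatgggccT
MT-CO2: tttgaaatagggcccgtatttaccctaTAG
MT-ND6: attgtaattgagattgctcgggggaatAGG

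Of the 10 reading frames, 6 ended in an incomplete codon (MT-ND1, MT-ND2, MT-ND3, MT-ND4, MT-CO3 and MT-CYB) and 4 in a whole one (MT-ND5, MT-ND6, MT-CO1 and MT-CO2). Base composition set MT-ND6 apart. G made up 35.6% of MT-ND6 and between 9.5% and 16.2% of the other members, whereas C made up 7.05% of MT-ND6 and between 29.5% and 36.0% of the others. The libraries came from a strand-specific mRNA kit. Whether counting used the strand is not given in the sources used here, so reads of MT-ND6 and of heavy-strand RNA across the same bases cannot be told apart. The end of MT-ND4L overlaps the start of MT-ND4, and how reads there were assigned is not given either.

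Library totals ran from 17958558 to 20650819 counts, and the smallest count of a member in any library was 263. Nuclear copies of mitochondrial genes held at most 0.149% as many counts as the members of the same library; for single genes the highest share was 2.71%, for MT-ND6 in 22Rv1. All 4 epithelial markers (KRT8, KRT18, EPCAM, CDH1) had counts in every group. Summed immune markers stayed at or below 0.45 CPM (counts scaled to the same total in every library) in every library. The epithelial sum was higher in every RIPK2 group than in control of its line, without overlap. In 22Rv1 it was 816 to 869 CPM in control, 933 to 1042 with gRNA 1 and 1049 to 1079 with gRNA 10. DU145 had 829.5 to 860, 1499 to 2540 (gRNA 2) and 1435 to 1547 (gRNA 10). PC3 had 719 to 740, 926 to 976 and 1668 to 1784 in the same order. Its part in the members' changes was not tested.

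RIPK2 itself had a lower level in every RIPK2 population than in its control libraries, with no overlap. In 22Rv1 its level was 15.7 to 18.1 CPM in control, 7.78 to 9.83 CPM with gRNA 1 and 5.23 to 5.56 CPM with gRNA 10. In PC3 the ranges were 58.0 to 60.8, 20.1 to 21.9 with gRNA 2 and 25.9 to 28.96 with gRNA 10. In DU145 they were 40.8 to 46.3, 9.75 to 13.5 with gRNA 2 and 33.5 to 36.6 with gRNA 10. The last difference was the smallest, with a log2 change of -0.29 (SE 0.11) and an adjusted p of 0.0614 in the edgeR fit described next, and so did not pass.

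3 libraries stood apart from their replicates in the members' counts. Replicate 3 of 22Rv1 gRNA 1 had 14.1% of its counts in the 10 genes, against 1.64% and 1.52% in the other replicates. Replicate 1 of the 22Rv1 control had 0.399% against 0.958% and 1.01%. Replicate 3 of DU145 gRNA 2 had 2.60% against 1.56% and 1.86%. Results within a line that rest on them are given with and without them. Comparisons between lines were repeated without replicate 3 of 22Rv1 gRNA 1 only, and so rest on the others throughout.

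The share of counts in the 10 genes differed between the lines before any RIPK2 guide, by its values and without a test of the share. Each line has a count table of its own. Line and any separate preparation or processing therefore cannot be told apart. Control libraries of PC3 held 3.58% ± 0.113 (SD, n = 3), those of DU145 1.14% ± 0.0215 (n = 3) and those of 22Rv1 0.788% ± 0.338 (n = 3). The 95% Wilson interval of a single library was narrow, 0.396% to 0.401% in the library with the lowest share. Such intervals cover counting error only, because without molecular identifiers copies of 1 molecule count more than once, and the spread between libraries was wider.

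**Figure D1:**
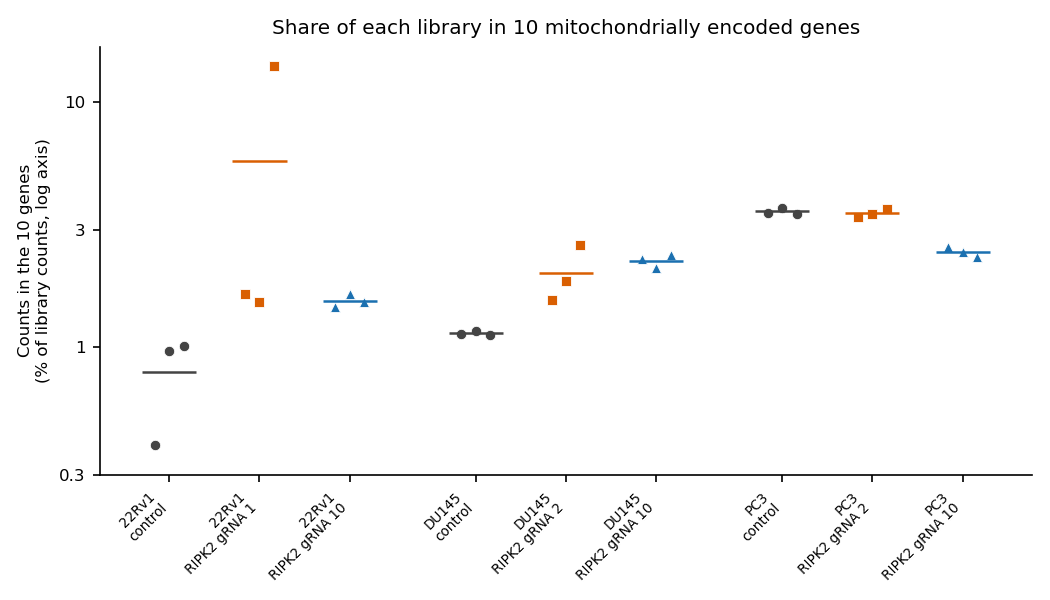
Percent of all counts of a library in the 10 mitochondrially encoded genes (log axis) for the 27 libraries, 3 per group; each point is a library and each line the group mean. All 6 RIPK2 libraries of 22Rv1 and of DU145 lie above their controls, replicate 3 of 22Rv1 gRNA 1 stands at 14.1%, and gRNA 10 of PC3 lies below its controls.

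Within control cells the order of the genes was set by length-scaled level, that is CPM divided by gene length in kb, expressed as a percentage of the sum over the 10 genes of the same library. The 3 complex IV genes led in 22Rv1 and PC3. In 22Rv1 they were MT-CO3 with 19.6% ± 0.671, MT-CO2 with 18.5% ± 0.742 and MT-CO1 with 16.4% ± 0.254 (SD, n = 3 for all values in this order). MT-ND4 followed with 11.2% ± 0.67, then MT-ND3 with 7.93% ± 1.19, MT-CYB with 7.87% ± 0.356, MT-ND2 with 6.98% ± 0.435 and MT-ND1 with 6.51% ± 0.168. MT-ND5 with 4.13% ± 0.223 and MT-ND6 with 0.963% ± 0.29 came last. The neighbours MT-CO3 and MT-CO2, MT-ND3 and MT-CYB, and MT-ND2 and MT-ND1 lay closer than the sum of their SDs.

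DU145 differed in that MT-ND4 stood level with the complex IV genes. MT-CO2 held 18.7% ± 0.5, MT-CO1 17.7% ± 0.171, MT-CO3 17.5% ± 0.329 and MT-ND4 17.5% ± 0.754, and the last 3 lay closer than the sum of their SDs. MT-ND2 with 8.0% ± 0.315, MT-CYB with 6.85% ± 0.178, MT-ND1 with 5.80% ± 0.135, MT-ND3 with 5.02% ± 0.193 and MT-ND5 with 2.60% ± 0.11 followed. MT-ND6 was at 0.308% ± 0.0885.

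In PC3, MT-CO1 alone held 28.8% ± 0.332, ahead of MT-CO2 with 17.6% ± 0.31 and MT-CO3 with 14.7% ± 0.544. MT-ND1 with 10.2% ± 0.304 stood above MT-ND4 with 8.95% ± 0.464, and MT-ND2 with 7.50% ± 0.0677, MT-CYB with 5.0% ± 0.0752 and MT-ND5 with 4.10% ± 0.339 came next. MT-ND3 was at 2.66% ± 0.206 and MT-ND6 at 0.562% ± 0.0703. Every step in the PC3 order was larger than the sum of both SDs. MT-ND6 was lowest of the 10 in all 3 lines.

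**Figure D2:**
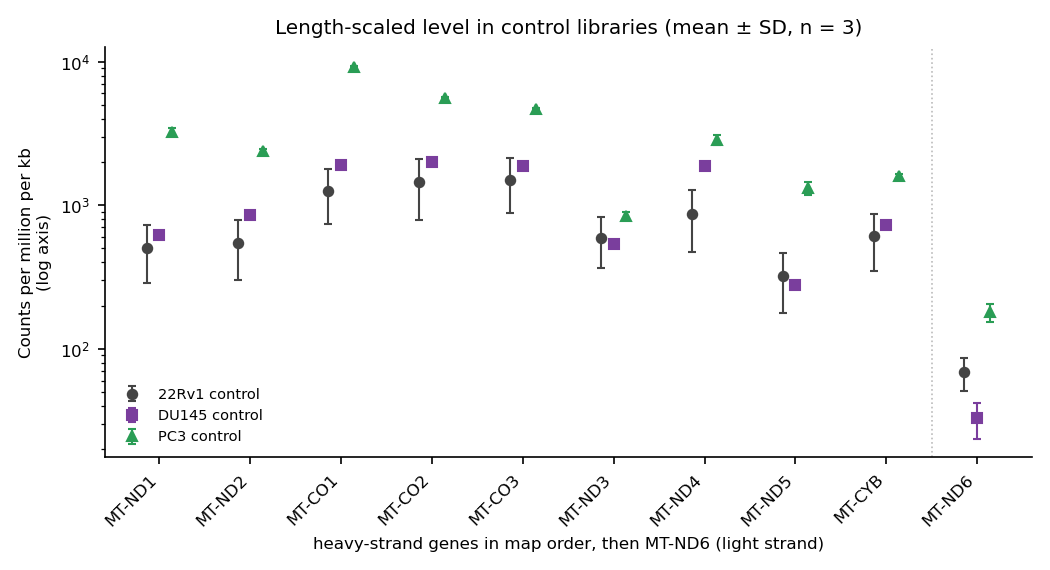
CPM per kb of gene length (log axis, mean ± SD, n = 3 control libraries) for the heavy-strand genes in map order and then MT-ND6, in 22Rv1, DU145 and PC3. PC3 lies above the other lines for each gene, and MT-ND6 is lowest in each line.

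Levels of the control libraries were tested between lines in 1 edgeR fit of all 27 libraries, over 16322 genes tested of 20089 found in all 3 tables. Control libraries of PC3 had higher levels than those of 22Rv1 for 9 members, with log2 differences (22Rv1 minus PC3) from -1.57 for MT-ND6 to -3.05 for MT-CO1. MT-ND3, at -0.69 (adjusted p 0.162), did not pass. Against DU145, PC3 was higher for 8 members, the largest difference being -2.68 for MT-ND6 (adjusted p 0.000257, DU145 minus PC3), while MT-ND3 and MT-ND4 did not pass. Between 22Rv1 and DU145 no member passed, and the adjusted p values of that contrast ran from 0.0791 for MT-ND6 upward. Of all genes, 80.5% passed between 22Rv1 and PC3, 75.9% between DU145 and PC3 and 75.9% between 22Rv1 and DU145. Without replicate 3 of 22Rv1 gRNA 1 the counts were 10, 10 and 4 members in the same order, where 82.2%, 78.4% and 78.3% of all genes passed.

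The question of the next comparisons was how the genes' levels in the RIPK2 populations stood against control cells of the same line. Each line was fitted on its own with edgeR's quasi-likelihood F test, a gene was called at a Benjamini-Hochberg adjusted p below 0.05 over all genes tested, and a log2 change carries the standard error (SE) of that fit. Controls are shared by both guides of a line. In bulk RNA a lower or higher share of cells with many mitochondrial RNAs and a change in each cell cannot be told apart.

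In DU145 the genes rose together with both guides. With gRNA 2, 9 of 10 members rose and none fell, where 17.1% of all genes tested rose. With gRNA 10, all 10 rose, where 20.2% of all genes did. The median log2 change of the 10 was 0.83 with gRNA 2 and 1.15 with gRNA 10 (a description, not a test), against 0.01 and 0.00 over all genes tested.

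MT-CO1, the catalytic subunit of complex IV, stood at 2886, 2966 and 2917 CPM in the DU145 control libraries, at 4156, 5441 and 7847 CPM with gRNA 2 and at 5224, 4638 and 5007 CPM with gRNA 10. Its groups did not overlap with control, and it rose by log2 1.11 (SE 0.22, adjusted p 0.00332) and 0.81 (SE 0.21, adjusted p 0.0126). MT-ND1, which lies first among the protein genes, had 573, 610 and 595 CPM in control, 862, 862 and 909 CPM with gRNA 2 and 1642, 1479 and 1735 CPM with gRNA 10. The 3 groups formed separate steps, and the changes were log2 0.67 (SE 0.10) and 1.5 (SE 0.10), with adjusted p values of 0.000709 and 3.09e-06. MT-CYB moved from 826 to 843 CPM in control to 1069 to 1655 CPM with gRNA 2 and 1909 to 2165 CPM with gRNA 10. MT-ND6 was the exception with gRNA 2: it had 22.9, 14.7 and 14.2 CPM in control and 12.9, 15.1 and 17.0 CPM with that guide, which overlap. With gRNA 10 it had 34.3, 18.4 and 32.3 CPM, which also overlap with control, and rose by log2 0.76 (SE 0.25, adjusted p 0.035).

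Between the 2 DU145 populations, 4 members were lower with gRNA 2 than with gRNA 10, where 19.6% of all genes were. They were MT-ND1 (log2 -0.83), MT-ND6 (-0.86), MT-ND3 (-0.61) and MT-CYB (-0.57). These calls are read against 38.8% of all genes called in either direction. Without replicate 3 of gRNA 2, 8 were lower, all but MT-ND4 and MT-CO1, where 47.9% of all genes were called, and without replicate 1 of gRNA 2 the number was 2, where 37.1% were. For the mean of both guides, 9 members rose in DU145, where 17.9% of all genes did. With replicate 3 of gRNA 2 left out, gRNA 2 against control gave 9 members higher, with a median log2 change of 0.60, where 45.8% of all genes were called in either direction against 34.0% with it.

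In PC3 the guides differed. With gRNA 10, 9 of 10 members fell and none rose, where 35.6% of all genes fell. With gRNA 2, 4 rose and 5 fell, where 32.1% of all genes rose and 31.5% fell. The median log2 change of the 10 was -0.65 with gRNA 10 and -0.04 with gRNA 2. Over all genes tested the median changes were 0.01 with either guide.

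MT-ND2, a complex I subunit near the start of the heavy-strand transcript, showed the largest fall with gRNA 10. It had 2471, 2594 and 2419 CPM in control, 2240, 2223 and 2224 CPM with gRNA 2 and 1290, 1235 and 1220 CPM with gRNA 10, 3 groups that did not overlap. Its log2 changes were -0.20 (SE 0.03, adjusted p 5.2e-06) and -1.06 (SE 0.03, adjusted p 2.73e-22). MT-CO3 fell with both guides, from 3746, 3621 and 3642 CPM to 2434, 2488 and 2626 CPM with gRNA 2 and 2235, 2175 and 1929 CPM with gRNA 10. MT-CO2, another complex IV gene, rose with gRNA 2 and fell with gRNA 10: it had 3873, 3883 and 3784 CPM in control, 4461, 4786 and 5036 CPM with gRNA 2 and 2491, 2262 and 2062 CPM with gRNA 10. With gRNA 2, then, these neighbours in 1 enzyme changed in opposite directions.

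The genes that rose with gRNA 2 of PC3 were MT-ND6 (log2 0.66, SE 0.15), MT-CO2 (0.27, SE 0.06), MT-CYB (0.23, SE 0.03) and MT-ND4 (0.15, SE 0.05). Those that fell were MT-CO3 (-0.58), MT-ND3 (-0.40), MT-ND1 (-0.34), MT-ND2 (-0.20) and MT-CO1 (-0.09), whose groups overlapped. MT-ND5 did not pass, at log2 0.00 with a 95% interval of -0.13 to 0.13. MT-ND6 with gRNA 10 did not pass either, at 0.19 with an interval of -0.17 to 0.55. Every member was higher with gRNA 2 than with gRNA 10, where 36.5% of all genes were, the largest difference being log2 1.09 for MT-CO2. For the mean of both guides, 8 members fell and MT-ND6 rose, where 34.8% of all genes fell and 33.6% rose.

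In 22Rv1 the calls depended on the libraries that stood apart. With gRNA 1, 7 of 10 members rose and none fell, where 25.6% of all genes rose, and the median log2 change was 2.77, against 0.02 over all genes tested. MT-CO1 had 1012, 2356 and 2454 CPM in control and 5111, 4570 and 45230 CPM with gRNA 1. It changed by log2 3.30 (SE 0.97, adjusted p 0.0245), and the highest library held 9.35 times the mean of its replicates. Without that library 2 members rose (MT-CO1, log2 1.25, adjusted p 0.0268, and MT-CO2, 1.14, adjusted p 0.0498), and the median of the 10 was 0.78. In that fit 54.6% of all genes were called in either direction, against 48.5% with the library. Without replicate 1 of the control none was called, where 40.0% of all genes were, and the median of the 10 was 2.45.

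With gRNA 10, no member of 22Rv1 passed in the edgeR fit, and none had an unadjusted p below 0.05, where 40.6% of all genes tested were called. In each of the 9 heavy-strand genes the 3 libraries nevertheless lay above all 3 control libraries: MT-CO2 had 475, 1216 and 1269 CPM in control and 2198, 2591 and 2274 CPM with gRNA 10. MT-ND6 lay below its controls, at 17.9, 17.2 and 19.2 CPM against 26.6, 35.7 and 45.4 CPM. When replicate 3 of gRNA 1, which enters the spread of this fit, was left out, MT-ND5, MT-CO1, MT-CO2 and MT-CO3 rose with gRNA 10 and MT-ND6 fell by log2 0.99 (edgeR, adjusted p 0.000103), where 58.3% of all genes were called. Without both libraries that stood apart (gRNA 1 replicate 3 and control replicate 1), an alternative chosen after the values were seen, 8 members rose and 1 fell with either guide, where 52.7% of all genes were called with gRNA 1 and 55.9% with gRNA 10. With gRNA 10 the rises ran up to log2 0.90 for MT-CO2 (adjusted p 3.52e-07), MT-ND2 did not pass, and MT-ND6 fell by log2 1.19 (adjusted p 1.22e-06). With gRNA 1 the rises ran up to 0.94 for MT-CO1, MT-ND3 did not pass, and MT-ND6 fell by log2 0.56 (adjusted p 0.00168). DESeq2 gave no adjusted p for 8 of the 10 members in this line.

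Against each other the 2 RIPK2 populations of 22Rv1 had no member called, where 35.6% of all genes were, with 4 members at an unadjusted p below 0.05; 3 were called with both libraries left out, where 45.7% of all genes were. The mean of both guides had no member called either, where 46.6% of all genes were, and 2 had an unadjusted p below 0.05; with both libraries left out 9 were called, where 56.0% of all genes were. Intervals of these fits were wide: MT-CO1 of gRNA 10 against control had a 95% interval of log2 -0.96 to 3.21.

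**Figure D3:**
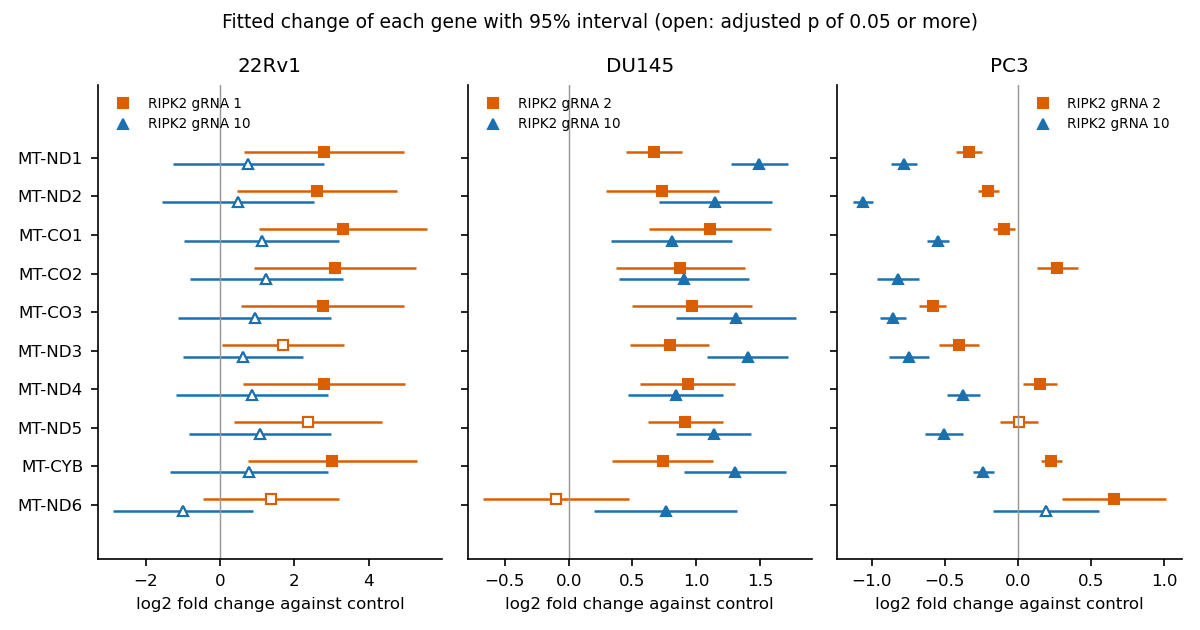
Log2 fold change against control (x axis, a different range in each panel) with its 95% interval for each gene, for the 2 RIPK2 guides of each line; filled points had an adjusted p below 0.05 and open points did not. DU145 points lie to the right of 0 except MT-ND6 with gRNA 2, PC3 gRNA 10 points lie to the left except MT-ND6, and 22Rv1 intervals are the widest.

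The balance among the genes was tested on ratios within a library, which do not depend on library size. For 12 such tests (4 quantities in 3 lines), the 6 RIPK2 libraries were compared with the 3 control libraries by a two-sided exact permutation test with 84 splits, whose smallest possible p is 0.0238, adjusted over the 12 by Benjamini-Hochberg. A test over 6 libraries from 2 populations compares those populations with 1 control population. The 7 that passed had an exact p of 0.0238 and an adjusted p of 0.0408, with 6 of 6 RIPK2 libraries on 1 side of every control.

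The summed share of the 10 genes was the first of these quantities. In DU145 it was 1.13%, 1.16% and 1.12% in control, 1.56%, 1.86% and 2.60% with gRNA 2 and 2.29%, 2.09% and 2.38% with gRNA 10, higher by 0.994 percentage points (exact permutation p 0.0238). In 22Rv1 the difference was 2.86 points, and 0.772 points without replicate 3 of gRNA 1 (exact permutation p 0.0357, the smallest that set allows). In PC3 it was -0.598 points and did not pass (exact permutation p 0.119, adjusted 0.178). Without replicate 3 of gRNA 2 it was -0.734 points, with an unadjusted exact permutation p of 0.0357, the smallest that set allows. That library was the only RIPK2 library of PC3 not below every control. The p therefore follows from leaving it out and is not read as a sign of a fall. PC3 control libraries held 3.53%, 3.71% and 3.50%. The gRNA 2 libraries held 3.41%, 3.49% and 3.66%, of which 2 lay below the lowest control and 1 within the controls' range. The gRNA 10 libraries held 2.57%, 2.44% and 2.33%, all below the controls.

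MT-ND6 lost ground to the heavy-strand genes in 22Rv1 and gained on them in PC3. The log2 ratio of MT-ND6 to the summed 9 heavy-strand genes was -7.22, -8.06 and -7.79 in 22Rv1 control libraries, -9.04, -9.15 and -9.39 with gRNA 1 and -9.67, -9.91 and -9.64 with gRNA 10. The difference was -1.78 (exact permutation p 0.0238), and it was -1.79 without replicate 3 of gRNA 1. In PC3 the ratio was -8.43, -8.50 and -8.79 in control, -7.89, -7.83 and -7.81 with gRNA 2 and -7.76, -7.59 and -7.98 with gRNA 10, higher by 0.767 (exact permutation p 0.0238). In DU145 it was -8.95, -9.62 and -9.62 in control, -10.2, -10.3 and -10.6 with gRNA 2 and -9.38, -10.2 and -9.53 with gRNA 10. There the difference of -0.629 did not pass (exact permutation p 0.143, adjusted 0.19), with all 3 gRNA 2 libraries below every control, 1 gRNA 10 library below them and the other 2 within their range.

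Complex I genes lost weight against complex IV genes in 22Rv1. The log2 ratio of the 6 complex I genes to the 3 complex IV genes was -0.47, -0.38 and -0.43 in control, -0.82, -0.76 and -0.94 with gRNA 1 and -0.70, -0.79 and -0.66 with gRNA 10, a difference of -0.35 (exact permutation p 0.0238). As a share of the 10 genes' counts, complex I went from 38.9% ± 0.851 (SD, n = 3) in control to 32.7% ± 1.48 with gRNA 1 and 34.9% ± 0.916 with gRNA 10. In DU145 the difference was -0.024 (exact permutation p 0.905) and in PC3 0.025 (exact permutation p 0.548), neither of which passed. Replicate 3 of DU145 gRNA 2 was the lowest in that line, at -0.62 against -0.27 and -0.30 in its replicates.

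The late genes of the heavy-strand precursor (MT-ND4, MT-ND5 and MT-CYB) gained on the early ones (MT-ND1 and MT-ND2) in PC3. The log2 ratio was 0.48, 0.58 and 0.55 in control, 0.94, 0.93 and 0.95 with gRNA 2 and 1.05, 1.06 and 1.06 with gRNA 10, higher by 0.462 (exact permutation p 0.0238). Both RIPK2 groups were tight and stood above the controls. In 22Rv1 the ratio went from 1.23, 1.19 and 1.30 in control to 1.33, 1.31 and 1.32 with gRNA 1 and 1.54, 1.5 and 1.52 with gRNA 10, a difference of 0.181 (exact permutation p 0.0238). In DU145 the guides went apart: 1.46, 1.70 and 1.58 with gRNA 2 and 1.07, 1.13 and 1.08 with gRNA 10 around controls of 1.49, 1.40 and 1.31, and the difference of -0.063 did not pass (exact permutation p 0.69).

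**Figure D4:**
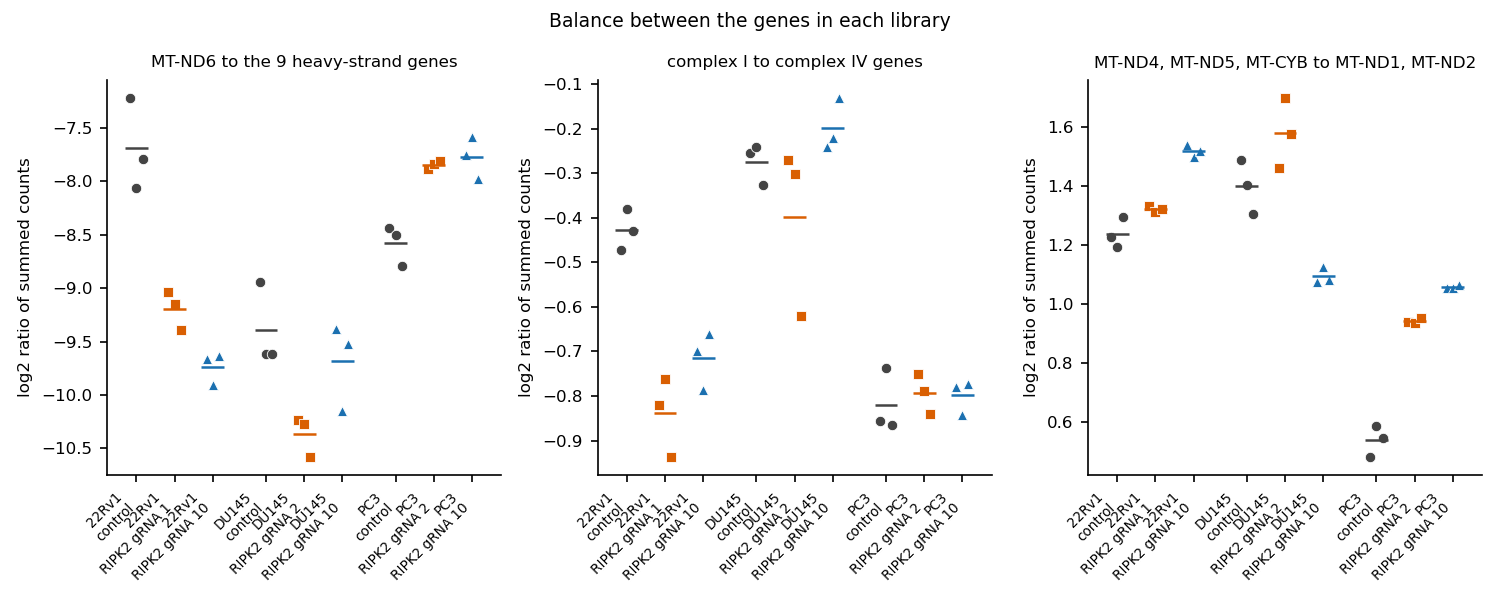
Log2 ratio of summed counts in each library (y axes) for MT-ND6 against the 9 heavy-strand genes, complex I against complex IV genes, and MT-ND4, MT-ND5 and MT-CYB against MT-ND1 and MT-ND2; points are libraries and lines are group means. RIPK2 libraries of 22Rv1 lie below their controls in the first and second panels, and those of PC3 above their controls in the first and the third.

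The high level of replicate 3 of 22Rv1 gRNA 1 was spread over all 10 genes. Set against the mean CPM of the other 2 replicates, its members stood between 5.16 times (MT-ND3) and 9.99 times (MT-CYB) higher, with MT-CO1 at 9.35, MT-CO3 at 9.18 and MT-ND6 at 7.24 times. Its ratios of late to early genes and of MT-ND6 to the heavy-strand genes, 1.32 and -9.39, compare with 1.33 and 1.31, and with -9.04 and -9.15, in its replicates. Of the other mitochondrial rows, MT-RNR2 and MT-ATP6 stood 5.39 and 7.46 times higher, within the members' range, and MT-ND4L 10.2 times, just above it. MT-RNR1, an rRNA like MT-RNR2, was at 4.16 times, below that range, and MT-ATP8 at 32.9 times, above it, from 33 and 36 counts to 1135. Another sum covered nuclear-encoded RNAs that mostly carry no poly(A) tail or are processed apart from ordinary messages. They were MALAT1, NEAT1, RN7SL2, TERC and histone genes, and in PC3 also RMRP. Their sum differed in that 22Rv1 library too, at 401 CPM against 183 and 196 CPM. In 22Rv1 control it was 158, 304 and 237 CPM, the first being the library with the lowest member share. With gRNA 10 of that line it was 220.1 to 242.5 CPM. The part of these RNAs in the result was not tested.

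In DU145 replicate 3 of gRNA 2 the ratio ran from 1.05 (MT-ND1) to 1.76 (MT-CO2), and in 22Rv1 control replicate 1 from 0.374 (MT-ND4) to 0.655 (MT-ND6). The sum of those nuclear-encoded RNAs in DU145 stood at 761 to 966 CPM in control and 1607 to 1883 CPM with gRNA 10. With gRNA 2 it was 1579, 2003 and 732 CPM, the last being the library with the highest member share. In PC3 it was 1807 to 1928 CPM in control, 1053 to 1168 CPM with gRNA 2 and 1184 to 1328 CPM with gRNA 10. Their part in the members' changes was not tested.

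Markers of other cells were low but not even. Of 4 fibroblast genes (COL1A1, COL1A2, DCN, LUM), 2 had counts in DU145 control, 2 with gRNA 2 and 4 with gRNA 10, and their sum was 13.5 to 14.5, 4.99 to 11.96 and 24.4 to 30.4 CPM. In PC3 the sum was 26.3 to 27.8 CPM in control (4 of 4 genes), 44.9 to 52.7 with gRNA 2 (3 of 4) and 51.8 to 56.9 with gRNA 10 (3 of 4), and in 22Rv1 it was 8.12 to 10.2 (3 of 4), 14.2 to 28.7 (4 of 4) and 22.3 to 24.8 CPM (4 of 4) in the same order. The endothelial genes PECAM1 and CDH5 were both at 0 in 22Rv1 control and at most 0.111 CPM in sum in its RIPK2 groups, and in DU145 they reached 0.55 CPM. In PC3 their sum was 1.66 to 2.2 CPM in control (1 of 2 genes), 8.76 to 9.75 with gRNA 2 and 6.0 to 7.93 with gRNA 10 (2 of 2 in both). Counts of these genes do not show that such cells were present, and the part of other cells in the members' changes was not tested.

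**Figure D5:**
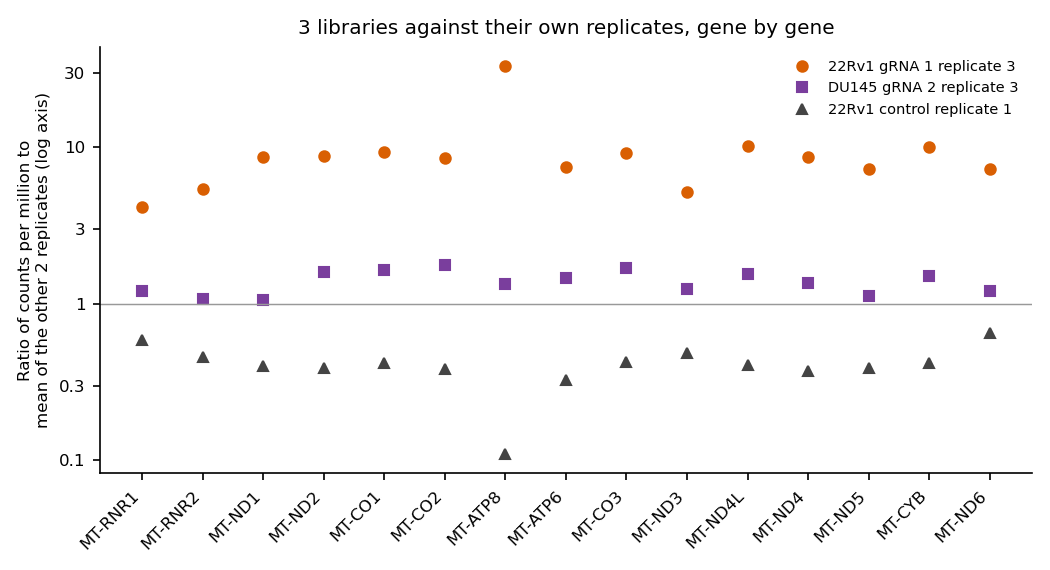
Ratio of CPM in a library to the mean of the other 2 replicates of its group (log axis) for 15 mitochondrial genes in map order with MT-ND6 last. Replicate 3 of 22Rv1 gRNA 1 lies between 4.16 and 10.2 except MT-ATP8 at 32.9, and 22Rv1 control replicate 1 lies below 1 throughout.

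The effect of RIPK2 guides (mean of both against control) was also compared between lines in the fit of 27 libraries. It was higher in 22Rv1 than in PC3 for 9 members, all but MT-ND6, where 45.3% of all genes passed, with differences from log2 1.76 (MT-ND3) to 2.59 (MT-CO3). It was higher in DU145 than in PC3 for MT-CO3 (1.88, SE 0.71, adjusted p 0.0405) and MT-ND3 (1.69, SE 0.55, adjusted p 0.0191), where 42.2% of all genes passed. Between 22Rv1 and DU145 no member passed, where 47.1% of all genes did. Without replicate 3 of 22Rv1 gRNA 1, the members passing were 10 between 22Rv1 and PC3, 9 between DU145 and PC3, and 2 between 22Rv1 and DU145 (MT-ND3 at -0.61 and MT-ND6 at -1.01), where 48.2%, 48% and 49.3% of all genes passed. In that fit MT-ND6 differed between 22Rv1 and PC3 by -1.08 (adjusted p 0.000762), in the direction opposite to the other 9 members.

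The nuclear genes that serve these messages were followed as 4 lists. In 22Rv1, of 46 tested genes of mitochondrial DNA maintenance, transcription and RNA processing, 9 rose and 12 fell with gRNA 1 and 2 rose and 14 fell with gRNA 10. Of all genes tested in 22Rv1, 25.6% rose and 22.9% fell with gRNA 1, and 20.0% rose and 20.6% fell with gRNA 10. In DU145, 8 of 45 rose and 2 fell with gRNA 2, where 17.1% of all genes rose and 17.0% fell, and 7 rose and 10 fell with gRNA 10, where 20.2% rose and 19.8% fell. In PC3, 10 of 45 rose and 16 fell with gRNA 2, where 32.1% of all genes rose and 31.5% fell, and 11 rose and 21 fell with gRNA 10, where 37.9% rose and 35.6% fell. The median log2 change of this list lay between -0.14 and 0.10 in the 6 comparisons.

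In that list, 2 genes changed in the same direction with both guides in 2 lines. How many of all genes met this rule was not counted, here or for the lists below. The number is therefore not read as a result about a list. DHX30, an RNA helicase needed for mitochondrial ribosome assembly, fell in 22Rv1 (log2 -0.52 and -0.36) and in DU145 (-0.36 and -0.35), and rose in PC3 (0.39 and 0.16). PPARGC1B, a coactivator of mitochondrial gene programmes, fell in 22Rv1 (-0.83 and -0.46) and PC3 (-0.30 and -1.27). In DU145 it rose with gRNA 2 (0.50) and did not pass with gRNA 10 (0.08). The largest changes by the mean of both guides were a rise of FASTK (0.75) and a fall of PPARGC1A (-1.34) in 22Rv1, a rise of GABPA (0.90) and a fall of DDX28 (-0.58) in DU145, and a rise of PRIMPOL (0.59) and a fall of PPARGC1B (-0.79) in PC3. Both DU145 changes passed with gRNA 10 only. GABPA stood at 0.20 with gRNA 2 and 1.59 with gRNA 10, and DDX28 at -0.17 and -0.98. PPARGC1A encodes a master coactivator of mitochondrial biogenesis, and the 22Rv1 guides differed on it, with log2 1.35 for gRNA 1 and -4.03 for gRNA 10. FASTK encodes a protein that acts in MT-ND6 RNA maturation, and its rise was with gRNA 1 (1.38), while with gRNA 10 it was 0.13 and did not pass.

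LRPPRC and SLIRP, which encode partners that bind and protect heavy-strand messages, were singled out after their values were seen. In PC3, SLIRP rose by log2 0.60 with gRNA 2 (adjusted p 2.91e-11) and fell by 0.95 with gRNA 10 (adjusted p 7.13e-15), while LRPPRC stood at 0.03 with gRNA 2 (adjusted p 0.579) and fell by 0.30 with gRNA 10. In DU145, LRPPRC rose by 0.32 and 0.24, and SLIRP did not pass. Neither gene passed in 22Rv1.

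Assembly factors of complexes I, III and IV were counted next. With the first guide (gRNA 1 in 22Rv1, gRNA 2 elsewhere), 7 of 45 rose and 4 fell in 22Rv1, where 25.6% and 22.9% of all genes did. In DU145 11 rose and 2 fell (17.1% and 17.0% of all genes), and in PC3 8 rose and 20 fell (32.1% and 31.5%). With gRNA 10, 4 rose and 9 fell in 22Rv1 (20.0% and 20.6% of all genes), 6 rose and 5 fell in DU145 (20.2% and 19.8%), and 10 rose and 25 fell in PC3 (37.9% and 35.6%). HIGD1A, a small inner-membrane protein of complexes III and IV, fell with both guides in 22Rv1 (log2 -0.98 and -1.22) and DU145 (-0.51 and -0.63) and rose in PC3 (0.53 and 1.17).

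Nuclear subunits of complexes I to IV were the next list. With the first guide, 2 of 28 rose and 4 fell in 22Rv1, where 25.6% and 22.9% of all genes did. In DU145 6 rose and 1 fell (17.1% and 17.0% of all genes), and in PC3 6 of 27 rose and 12 fell (32.1% and 31.5%). With gRNA 10, 3 rose and 1 fell in 22Rv1 (20.0% and 20.6% of all genes), 3 rose and 3 fell in DU145 (20.2% and 19.8%), and 5 rose and 18 fell in PC3 (37.9% and 35.6%). UQCRC1, a core subunit of complex III, fell with both guides in 22Rv1 (log2 -0.49 and -0.50) and DU145 (-0.30 and -0.49) and rose in PC3 (0.43 and 0.14).

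Genes of the stress response to mitochondrial dysfunction, such as ATF4 and its targets in amino acid and single-carbon synthesis, were the last list. In DU145, 9 of 14 rose and 1 fell with gRNA 2 (17.1% and 17.0% of all genes), and 1 rose and 9 fell with gRNA 10 (20.2% and 19.8%). In PC3, 1 rose and 12 fell with gRNA 2 (32.1% and 31.5% of all genes), and 10 rose and 1 fell with gRNA 10 (37.9% and 35.6%). In 22Rv1, 7 rose and 2 fell with gRNA 1 (25.6% and 22.9% of all genes), and 4 rose and 2 fell with gRNA 10 (20.0% and 20.6%). The median log2 change of the list was 0.48 and -0.47 in DU145, -0.48 and 0.35 in PC3, and 0.53 and 0.24 in 22Rv1, with gRNA 10 given second. No gene of this list changed the same way with both guides in 2 lines.

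Genes whose level moved most like the members' sum were found among 8280 genes with a mean of at least 10 CPM in each line, as the Spearman correlation of deviations from the line mean over 27 libraries. This is a description, since the points share libraries and scaling, and 5 genes are named. They were RHOB (rho 0.874, Pearson 0.649), TMEM94 (0.865, 0.699), CAPRIN2 (0.856, 0.739), ARFGAP1 (0.85, 0.83) and PDHA1 (0.848, 0.536). Without replicate 3 of 22Rv1 gRNA 1 the rho values were 0.859, 0.848, 0.839, 0.832 and 0.833. Within 22Rv1 alone, PDHA1 had a rho of 0.233. ARFGAP1 stood at 51.3 to 67.3 CPM in 22Rv1 control and at 152 CPM in replicate 3 of gRNA 1, against 93.3 and 97.4 CPM in the other replicates.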

How the data were processed

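For each line the authors deposited a table of gene symbols with raw counts (whole numbers with unequal totals). FastQC, STAR, edgeR and build hg38 are named in the submitters' processing notes, with no version or setting; the counting program is not given in the sources used here. The kit was strand-specific, per the labels' protocols. All value columns were matched to the 27 libraries by name (0 left over), and counts of a repeated symbol were added up.

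Counts were tested with edgeR 4.0.16 in R 4.3.3. Genes were kept by filterByExpr (count of at least 10, total of at least 15), TMM factors ran from 0.902 to 1.04, and robust quasi-likelihood F tests used the 9 libraries of a line with group as the only term. Adjustment was by Benjamini-Hochberg over all genes tested, called below 0.05. Comparisons between lines used all 27 libraries. Shares and ratios were compared by exact permutation. DESeq2 1.42.0, other scaling, filters and left-out libraries were alternatives. Positions and sequences came from GENCODE 29 (GRCh38).

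On simulated counts with 200 genes changed by a fold of 2, edgeR recovered 191 for 22Rv1 gRNA 1 against control (14966 genes), 197 for DU145 gRNA 2 (14714 genes) and 200 for PC3 gRNA 2 (14483 genes). False calls numbered 10, 11 and 7 in the same order. The simulated spread was the trend edgeR fitted over genes of similar level, and no simulated library stood apart. Recovery of the members in 22Rv1, where libraries did stand apart, was therefore not measured. Every replicate pair differed by more than sampling noise (chi-square per degree of freedom 1.82 or more), so none was counted as 1 sample. Genes named are the 10 members, list genes called in the same direction with both guides in at least 2 lines (at most 4 a list), the largest rise and fall of the maintenance list in each line, and the 5 genes most alike. LRPPRC and SLIRP fall outside this rule and were chosen after their values were seen. Members and lists were chosen with earlier results of these data known. The result of 1 marker list is not reported here.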

Additional observations from a re-analysis of the deposited data

Results flagged for a closer look

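The effect of RIPK2 guides (mean of both against control) differed between 22Rv1 and PC3 by the interaction test of edgeR for 9 genes, as log2 difference 22Rv1 minus PC3: MT-ND1 2.35 (adjusted p 0.00856), MT-ND2 2.20 (0.0162), MT-ND3 1.76 (0.0141), MT-ND4 1.962 (0.0278), MT-ND5 2.00 (0.0167), MT-CO1 2.56 (0.00705), MT-CO2 2.47 (0.00834), MT-CO3 2.59 (0.00618) and MT-CYB 1.92 (0.0377). Between DU145 and PC3 it differed for MT-ND3 by 1.69 (adjusted p 0.0191) and for MT-CO3 by 1.88 (0.0405). Of all genes, 45.3% passed between 22Rv1 and PC3 and 42.2% between DU145 and PC3. Without replicate 3 of 22Rv1 gRNA 1, the difference between 22Rv1 and PC3 ran from 0.86 (MT-CYB) to 1.58 (MT-CO3) over the same 9 genes and all of them passed, where 48.2% of all genes did.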

How the results depend on the processing

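Calls in 22Rv1 depended on the settings most. With gRNA 1 against control, 7 members were called, but 0 with no filter on low counts, 0 with only the groups compared in the fit, and 0 with the replicate block; leaving out 1 library gave 0 (without control replicate 1) to 9. MT-ND6 there ran from log2 -0.3791 to 1.812 without single libraries and was -0.5564 without both libraries that stood apart. With gRNA 10 the count was 0, but 3 with only the groups compared, 0 to 5 without single libraries and 9 without both. Between the guides it was 0 to 3 and 3, and for their mean 0 to 3 and 9. The share of all genes called moved too, and is given here for some settings only. Counts of members under the other settings are not read as results about the members. With gRNA 1 it was 48.5% with all libraries, 40.0% without control replicate 1 and 52.7% without both. With gRNA 10 it was 40.6% with all libraries, 58.3% without replicate 3 of gRNA 1 (the fit with 5 members called) and 55.9% without both. Between the guides it went from 35.6% to 45.7% without both, and for their mean from 46.6% to 56.0%. DESeq2 gave no adjusted p for 8 members in 22Rv1, so it gave no count there. Correlations of deviations ran from -0.189 to 0.339 for libraries with the same replicate number and from -0.3305 to 0.2332 for those with different numbers. The numbers in the library names, which differ in some groups, were not checked. Whether samples are paired was therefore not settled, and the replicate block is given only here.

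In DU145, gRNA 2 against gRNA 10 had 2 to 8 members called without single libraries. The 2 were called without replicate 1 of gRNA 2, where 37.1% of all genes were called. The 8 were called without replicate 3 of gRNA 2, where 47.9% of all genes were. MT-ND6 with gRNA 2, not called, ran from log2 -0.2503 to 0.1537 without single libraries. In PC3, MT-ND5 with gRNA 2, also not called, was -0.00108 with RLE factors, -0.001079 in DESeq2, -0.0047 without a filter, and -0.06211 to 0.08011 without single libraries. Of 1024 log2 changes of members under alternatives, 909 kept direction and side of the threshold, 81 lost the call, 24 gained it and 10 changed sign.

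Shares and ratios kept their direction without single libraries, except the DU145 ratio of complex I to complex IV (-0.05697 to 0.04091). The ranges were 0.7721 to 3.296 points (22Rv1 share), -1.963 to -1.541 (22Rv1 MT-ND6 ratio), -0.3735 to -0.3185 (22Rv1 complex I to IV), 0.1574 to 0.2096 (22Rv1 late to early), 0.9001 to 1.109 points (DU145 share), -0.734 to -0.4672 points (PC3 share), 0.6589 to 0.8379 (PC3 MT-ND6 ratio) and 0.4344 to 0.4857 (PC3 late to early). Without a control library no exact permutation p can go below 0.0714. As differences of medians the values that passed were 0.6279, -1.728, -0.3435 and 0.1877 in 22Rv1, 1.059 in DU145, and 0.6804 and 0.458 in PC3, each with an exact permutation p of 0.0714.

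With 1 guide alone against control, the smallest exact permutation p is 0.1. gRNA 1 and gRNA 10 of 22Rv1 gave MT-ND6 ratios of -1.503 and -2.05, complex I to IV of -0.4121 and -0.2885, and late to early of 0.08298 and 0.2796. gRNA 2 and gRNA 10 of PC3 gave MT-ND6 ratios of 0.7329 and 0.801 and late to early of 0.404 and 0.52. In DU145 the sign turned for complex I to IV with gRNA 10 (0.07642) and for late to early with gRNA 2 (0.1789). Without replicate 3 of 22Rv1 gRNA 1, members differing between 22Rv1 and DU145 numbered 2 in the RIPK2 effect and 4 in control level, and 9 differed between DU145 and PC3 in the RIPK2 effect. Of all genes, 49.3%, 78.3% and 48% passed in the same order. The causes were not tested.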

Other observations

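Mitochondrial rows outside the 10 genes gave the following values. MT-RNR2, the large ribosomal RNA, held 14.1% to 17.2% as many counts as the members in 22Rv1 control libraries, 5.2% to 5.65% in DU145 control and 19.5% to 20.4% in PC3 control. With gRNA 10 the range was 7.26% to 8.27% in DU145, above the controls, and 17.6% to 18.4% in PC3, below them. In replicate 3 of 22Rv1 gRNA 1 it was 10.9%, against 18.5% and 17.4% in the other replicates. MT-ATP8 had 26, 45 and 22 counts in DU145 control and 72, 88 and 96 with gRNA 10, and 442, 436 and 358 in PC3 control. MT-ATP6 had 11674, 12080 and 11064 counts in DU145 control and 30766, 28194 and 31112 with gRNA 10. All mitochondrially encoded rows together held 16.65% of the counts of that 22Rv1 library.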
